A study of Mus musculus with 16 samples.

Results

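The comparison described here set livers that carried both insults of the study, a labelled liver knockout of DRP1 and ethanol, against livers that carried neither. It took 4 libraries titled Drp1KO EDE against 4 titled Drp1WT CDM, 8 of the 16 libraries of the series, chosen by title alone. All mice were C57BL/6 and 8 to 10 weeks old, and RNA was taken from whole liver. The untreated group had the genotype WT and the treatment Control; the other had the genotype L-Dnm1l KO and the treatment EtOH, given as the Gao-Binge model. The remaining groups, labelled knockout without ethanol and wild type with ethanol (4 libraries each), supplied the single effects. Of 27288 genes, the 13256 with a mean of 10 or more normalised reads over the 16 libraries were tested.

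DRP1, encoded by Dnm1l, is the GTPase that divides mitochondria, and hepatocytes without it hold enlarged mitochondria. In the Gao-Binge model mice are fed an ethanol diet that ends with a single binge dose, which brings fat into hepatocytes together with stress and inflammation. The question put to the data was what the insults did together, and whether their separate effects added up, cancelled or hid one another.

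The libraries held 11425136 to 13864862 reads assigned to genes. Whether every library had a mouse to itself is not in the labels, and p-values therefore reflect the spread among libraries, which may be technical. Hepatocyte markers were high in all 16 libraries, with a summed level of 1528993 to 2611858 normalised reads over 21 genes. Among the 4 libraries with both insults, library 1 held 10958 normalised reads of 12 pancreatic acinar markers, against 16.4 or fewer in every other library. In the untreated libraries 11 of the 12 were at 0. Library 4 held 6400 normalised reads of 9 erythroid markers, against 3179 or fewer elsewhere. The samples are bulk tissue, in which fewer cells of a type and less RNA per cell cannot be told apart.

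Dnm1l itself (ENSMUSG00000022789, chromosome 16, 16312230 to 16358959, minus strand, GRCm38) was not lower in the libraries with both insults. It stood at 707, 581, 686 and 677 normalised reads in the untreated wild type and at 776, 949, 730 and 756 in the labelled knockout on ethanol. The groups did not overlap, and the labelled knockout was the higher one. Limma gave a log2 difference of 0.27 ± 0.11 (SE, adjusted p = 0.0519), and an exact two-sided permutation test gave p = 0.0286, the smallest that 4 against 4 allows. The threshold was passed under 8 of 29 alternatives. Among them were edgeR (log2 0.30, adjusted p = 0.0295) and DESeq2 (log2 0.28, adjusted p = 0.0403). Limma passed it, among other fits, without library 3 labelled knockout on control diet (log2 0.27, adjusted p = 0.0337). It also did so without library 3 labelled knockout on ethanol (log2 0.32, adjusted p = 0.0462). Counts were made over the whole gene, and which exons the allele removes is not given in the sources used here, so the value does not check the label. The genotype is therefore called labelled knockout throughout.

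Both insults together changed 4922 of 13256 genes (37.1%) in limma at a Benjamini-Hochberg adjusted p under 0.05. Of these 2526 rose (19.1%) and 2396 fell (18.1%), a balance that depends on the scaling of the libraries: with TMM factors 2703 rose and 2179 fell. Changes of at least 2-fold were 979 rises and 615 falls. The number called was 3114 without libraries 1 and 4 of the labelled knockout on ethanol.

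The combined change of a gene is exactly the sum of a pair of averages, the labelled genotype effect averaged over the diets and the ethanol effect averaged over the genotypes. The average genotype effect was called for 2476 genes (18.7%), 1330 higher (10.0%) and 1146 lower (8.65%). The average ethanol effect was called for 6084 (45.9%), 3008 higher (22.7%) and 3076 lower (23.2%). Genotype gave the larger part in 1345 of the 4922 called genes, or 27.3%. Both averages were called in 1 direction for 620 genes (4.68%), of which 300 rose and 320 fell, and all 620 were called in the combined change. Both were called in opposite directions for 671 genes (5.06%), and 492 of these (73.3%) were not called in the combined change. As the combined change is the sum of the averages, this contrast between the patterns follows from their definition and is not a separate result. Of the 671, 161 were still called higher and 18 lower. A single average was called for 1185 genes by genotype and 4793 by ethanol, with 474 and 1752 of them not called in the combined change. Leaving out libraries 1 and 4 of the labelled knockout on ethanol gave 362 genes that added and 395 that opposed, and with ethanol libraries 1 and 2 alone 289 added.

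**Figure D1:**
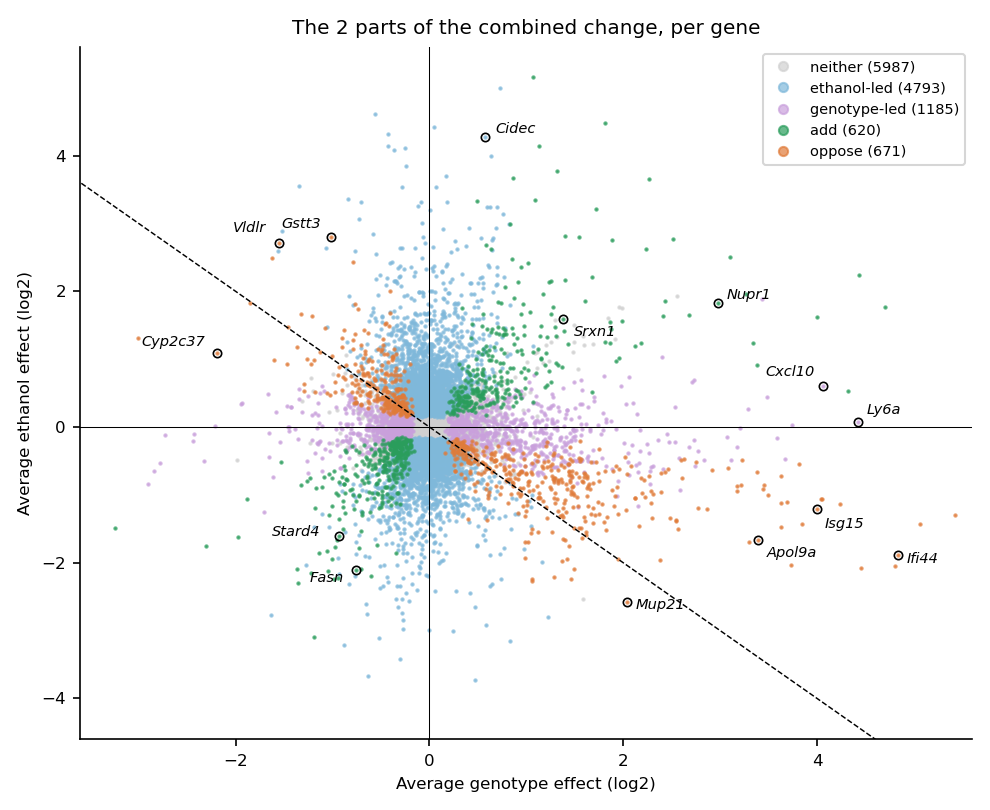
Average genotype effect (x axis, log2) against average ethanol effect (y axis, log2) for the genes tested, 1 point a gene, coloured by which averages limma called; 4 genes lie outside the axes. On the dashed line the averages cancel to a combined change of 0: the 671 genes whose averages opposed (orange) lie in the upper left and lower right quadrants, and the 620 that added (green) in the upper right and lower left.

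The opposing genes divided further by direction. Where the labelled genotype raised a gene and ethanol lowered it, 121 genes ended higher, 10 lower and 264 were not called. Where the genotype lowered a gene and ethanol raised it, 40 ended higher, 8 lower and 228 were not called. The plot of outcomes by pattern shows the large middle section of genes that moved under both insults and were not called different from the untreated wild type.

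**Figure D2:**
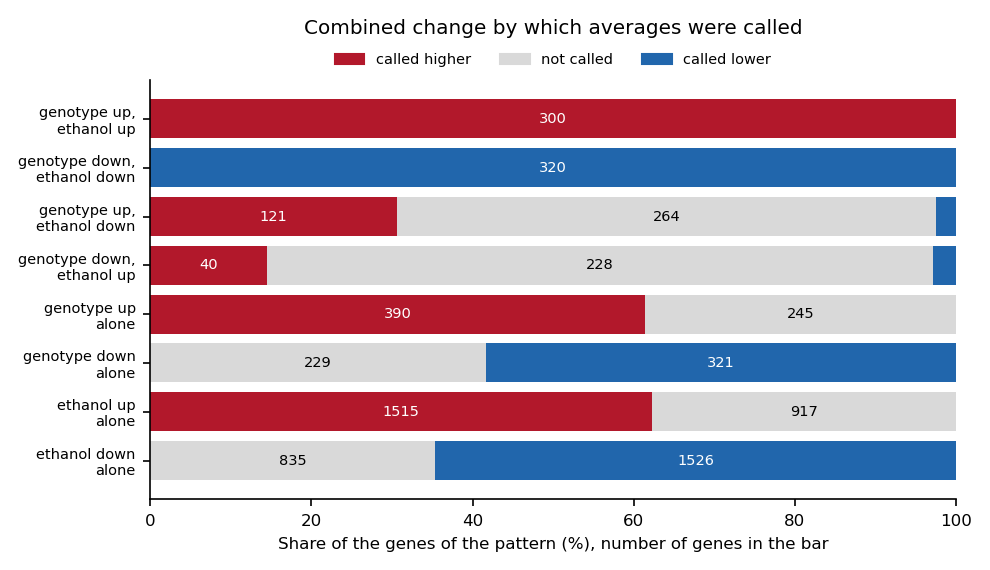
Share of the genes of each pattern (x axis, %) that limma called higher (red), lower (blue) or not at all (grey) in the combined change, with the number of genes printed in the larger sections. All 620 genes whose averages added were called, against 179 of the 671 whose averages opposed. This contrast follows from the definition of the patterns, as the combined change is the sum of the averages.

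Stress genes rose mostly with ethanol, and some with both insults. Of 26 measured genes of the integrated stress response, the program by which cells slow translation and induce amino acid and survival genes, 24 rose and 1 fell with both insults, with a median log2 of 1.77. Both averages rose for 6 of them and the ethanol average alone was called for 17. When libraries 1 and 4 of the labelled knockout on ethanol were left out, 15 rose and 1 fell. On their own the labelled knockout raised 7 of the 26 and lowered 1 (median 0.60), and ethanol in wild type raised 21 (median 2.03). Over all genes the labelled knockout alone changed 11.6%, 6.40% higher and 5.24% lower, and ethanol alone changed 38.0%, 18.9% higher and 19.0% lower. These single effects share the untreated wild-type libraries with the combined change and are set beside it as values.

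Nupr1, a stress-induced chromatin regulator (chromosome 7, 126623249 to 126630861), stood at 8.87, 14.9, 7.94 and 10.4 normalised reads in the untreated wild type. With both insults it reached 273, 272, 333 and 386. The lowest of these was over 10 times the highest untreated value, and each single insult gave a level in between: 99.9 ± 47.2 for the labelled knockout and 41.6 ± 7.57 for ethanol (SD, n = 4 each). The combined log2 change was 4.80 ± 0.26 (SE, limma adjusted p = 3.47e-09), made of 2.98 from genotype and 1.82 from ethanol. Atf3, a stress-induced transcription factor, rose from 16.8, 10.9, 31.8 and 10.4 to 1157, 897, 977 and 1028 (log2 5.92 ± 0.64, limma adjusted p = 3.71e-06). Its level with ethanol in wild type was uneven: library 4 held 3550 and the others 190 to 502. Ddit3, which encodes the stress transcription factor CHOP, rose 8.27-fold, from 82.8 ± 11.1 to 689 ± 53.7 (SD, n = 4 each; limma adjusted p = 7.12e-05). Its average genotype effect was not called when ethanol libraries 3 and 4 alone were used (log2 1.16, adjusted p = 0.102).

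Of 21 immediate early genes, transcription factors switched on within minutes of a stimulus, 17 rose with both insults (median log2 1.81). Ethanol in wild type raised 17 and the labelled knockout 5. Nr4a1, an orphan nuclear receptor of this class, went from 12.8, 10.9, 4.54 and 4.15 to 92.5, 80.7, 82.4 and 98.2 normalised reads. Its averages were 1.01 for genotype and 2.41 for ethanol on the log2 scale, and both were called. Of 22 p53 targets 14 rose and none fell (median 1.07). Of the 22, the labelled knockout alone raised 6, and ethanol alone raised 10 and lowered 2. Zmat3, an RNA-binding p53 target, shows an even split: 78.9, 87.5, 78.3 and 79.9 untreated against 154, 159, 186 and 173 with both. It received 0.55 from genotype and 0.49 from ethanol, and the departure from their sum was -0.03 with a 95% interval from -0.35 to 0.28. Mdm2, the ligase that degrades p53, rose 1.78-fold (log2 0.83 ± 0.11 SE, limma adjusted p = 2.67e-05), again with both averages called.

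Antioxidant genes rose with either insult. Of 34 targets of NRF2, the transcription factor that answers oxidants, 22 rose and 2 fell with both insults; 18 rose with the labelled knockout alone, and 21 rose and 4 fell with ethanol alone. The median combined change, 0.73, lay near each single median (0.64 and 0.76) and below the median of their sums, 1.42. Srxn1, sulfiredoxin (chromosome 2, 152105516 to 152111376), rose from 502, 534, 549 and 473 normalised reads to 2500, 3700, 5499 and 5251. It was at 1996 ± 259 with the labelled knockout and 2373 ± 769 with ethanol (SD, n = 4 each). Slc7a11, the cystine importer that feeds glutathione synthesis, was listed at 0 in 3 untreated libraries and at 1.04 in the other. It was at 97.4, 109, 123 and 164 with both insults, against 45.0 ± 16 with the labelled knockout and 8.89 ± 2.77 with ethanol. Over the groups 531 reads stood against 1, a ratio of 478 with an exact 95% interval from 85.3 to 18900 that covers counting error only.

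Storage and uptake of fat were described by separate lists. Of 17 lipid droplet and lipolysis genes, 8 rose and 2 fell with both insults, and none of the 17 rose with the labelled knockout alone. Cidec, which fuses lipid droplets, went from 74.0, 52.7, 68.1 and 41.5 to 1873, 1079, 1648 and 2425 normalised reads (log2 4.85 ± 0.33, limma adjusted p = 2.93e-08). Ethanol supplied 4.27 of this; the genotype average was 0.57 and was not called (adjusted p = 0.0953). Plin2, the main coat protein of hepatocyte droplets, rose 2.86-fold, with a genotype average of 0.08 (adjusted p = 0.702). Of 16 genes of fatty acid uptake and binding 5 rose and 6 fell (median -0.32), and both averages were called in 1 direction for 2. Cd36, a fatty acid transporter (chromosome 5, 17781690 to 17888801), rose from 703, 485, 557 and 370 to 3087, 3144, 2186 and 1877. Here each insult alone gave about the same level, 1528 ± 237 and 1414 ± 232 (SD, n = 4 each), and both averages were called (1.20 and 1.08).

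Lipid synthesis fell almost throughout. Of 24 de novo lipogenesis genes 20 fell and none rose (median log2 -1.44), and of 24 cholesterol synthesis genes 22 fell and none rose (median -1.40). Ethanol in wild type lowered 18 and 17 of them; the labelled knockout lowered 7 and 1. Fasn, fatty acid synthase (chromosome 11, 120805846 to 120824547), stood at 30220, 19014, 58921 and 29076 normalised reads in the untreated wild type and at 3970, 4674, 4384 and 4300 with both insults. The untreated libraries spread widely and still lay wholly above the others. Its log2 change of -2.86 ± 0.23 (SE, limma adjusted p = 1.37e-07) was -0.76 from genotype and -2.10 from ethanol. Stard4, a cytosolic sterol carrier, fell from 2489, 3092, 2953 and 2870 to 544, 457, 553 and 402, with averages of -0.94 and -1.61. Mlxipl, which encodes the carbohydrate-responsive factor ChREBP, fell to 0.348 of its level with both averages called (-0.53 and -0.99). Srebf1 and Insig1, a lipogenic transcription factor and the sterol-regulated retention protein, fell to 0.146 and 0.142 of their levels. Their genotype averages of -0.21 and -0.29 were not called (adjusted p = 0.528 and 0.203).

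Secreted proteins, transporters and hormone genes of hepatocytes went different ways. Of 23 acute-phase proteins 6 rose and none fell (median 0.36). That number was 3 rises without untreated library 1 or without library 2 with both insults, 3 rises and 1 fall without library 1 with both insults, and 2 rises without libraries 1 and 4 of that group. With ethanol libraries 3 and 4 alone 3 rose and 1 fell, and the median was -0.079. Of 17 coagulation factors 12 fell and none rose, and 7 fell without libraries 1 and 4 of the labelled knockout on ethanol. Of 22 bile acid genes 9 fell and 3 rose, and of 14 genes of ethanol and acetaldehyde metabolism 7 fell and 3 rose. Slc10a1, the sodium-dependent bile acid importer NTCP, fell from 12818, 12537, 16975 and 16987 to 5445, 7505, 6274 and 6341. Its averages were nearly equal, -0.63 and -0.58, and both were called. Ghr, the growth hormone receptor, fell from 8324, 8561, 8451 and 9745 to 3559, 3840, 3176 and 3408 (log2 -1.33 ± 0.12 SE, limma adjusted p = 7.94e-07). Adh4, an alcohol dehydrogenase, fell to 0.283 of its level, and its genotype average of 0.15 was not called (adjusted p = 0.399). Mcm10, a replication initiation factor, fell from 1533, 1347, 940 and 1454 to 248, 219, 142 and 180, and Cyp2d40, a cytochrome P450, from 1582 ± 302 to 414 ± 87.0 (SD, n = 4 each). Both of these had both averages called.

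**Figure D3:**
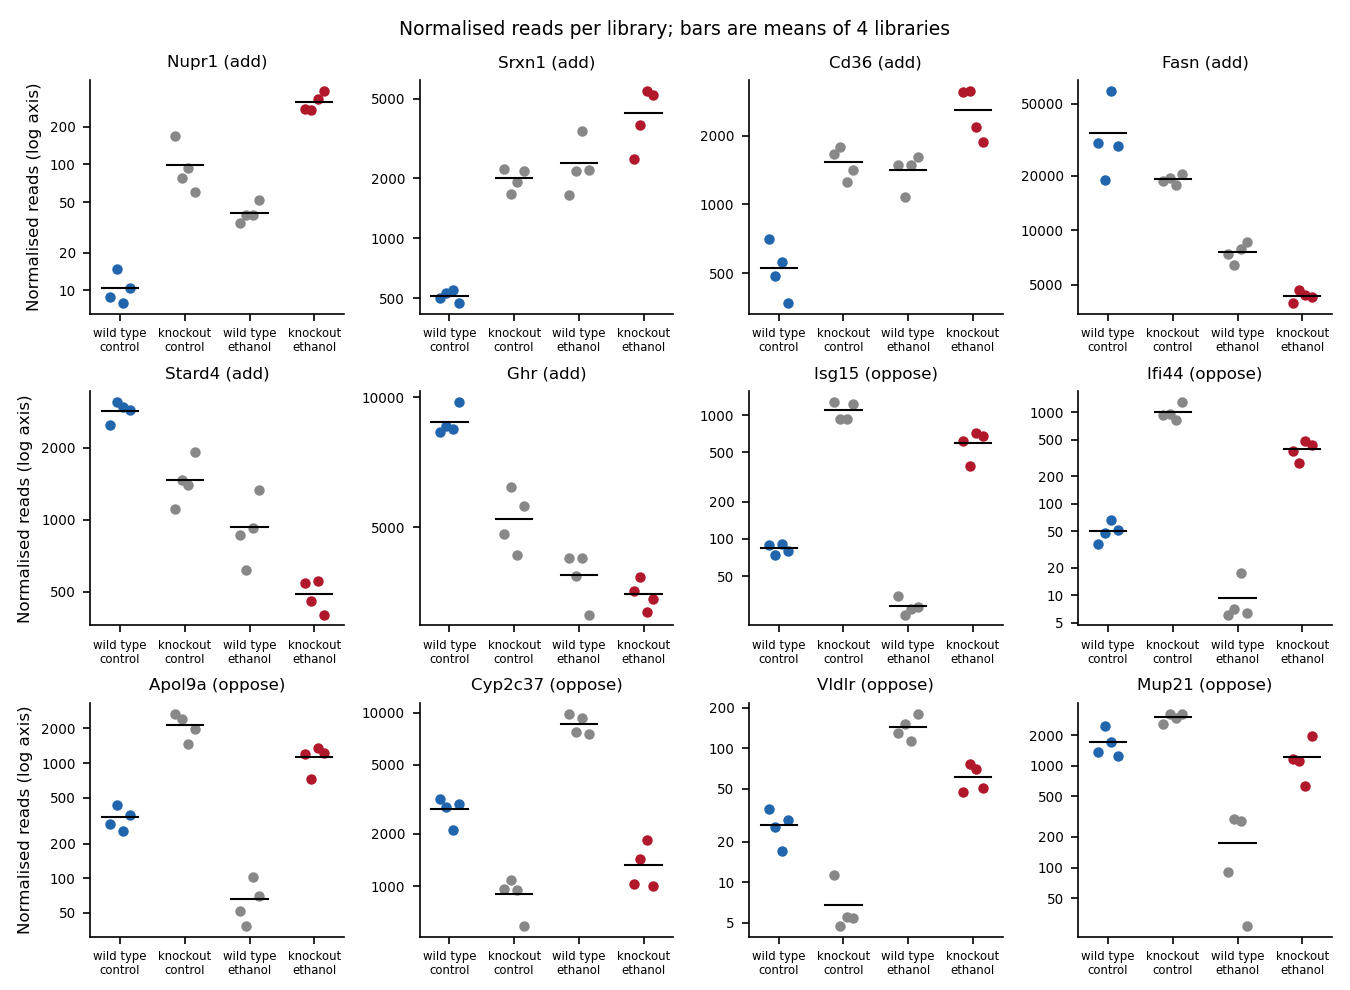
Normalised reads (y axis, log scale) of 12 genes in the 16 libraries, 1 point a library and a bar at the mean of each group of 4; untreated wild type in blue, labelled knockout on ethanol in red. In the 6 genes whose averages added, the mean with both insults lies further from the untreated mean than that of either insult alone; in Isg15, Ifi44, Apol9a, Cyp2c37, Vldlr and Mup21 the insults alone lie on opposite sides of the untreated wild type.

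Interferon-stimulated genes, antiviral and antigen-presenting genes that type I and type II interferons switch on, were, of the lists used, the one with the most members on which the insults opposed each other. With both insults 58 of 64 measured members rose and none fell, with a median log2 of 1.35. The labelled knockout alone raised 60 of 64 (median 1.84), and ethanol in wild type lowered 46 and raised 2 (median -0.71). Both averages were called in opposite directions for 53 of the 64, and 5 of those 53 were not called in the combined change. Of all genes tested 5.06% opposed. The list is also the longest used, and by share the class II list was higher, with 8 of 9 opposing.

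The stretches that follow show the letters that many members share. They are promoter sequences of RefSeq on GRCm38.p6, with capitals on GAAA, any 2 bases and GAAA again, the core of the interferon-stimulated response element, read on either strand; overlapping matches merge into 1 run of capitals. Each lies upstream of the gene's start and is given 5′ to 3′ on the gene's strand: Isg15 at chr4:156200850-156200909 (minus strand), Ifit3 at chr19:34583382-34583441 (plus strand) and Cxcl10 at chr5:92349068-92349127 (minus strand).
Isg15: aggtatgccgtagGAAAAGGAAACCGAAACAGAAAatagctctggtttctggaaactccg
Ifit3: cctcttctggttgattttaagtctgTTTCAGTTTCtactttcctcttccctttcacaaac
Cxcl10: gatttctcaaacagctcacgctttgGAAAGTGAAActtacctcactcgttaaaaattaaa
Isg15 carries 3 overlapping matches, and Ifit3 and Cxcl10 1 in the stretch shown. The letters occur in the promoters of 57.4% of the interferon-stimulated genes that have an entry (27 of 47). The share was 18.5% for genes raised by genotype and lowered by ethanol (58 of 313), 3.84% for all genes tested and 3.99% for all genes in the table. A promoter there is the 250 bases before and 50 after a start. Genes raised by genotype and lowered by ethanol include 53 of the 64 listed interferon-stimulated genes. The share of that set is therefore not separate from the share of the list. A match describes letters and not a bound site.

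Isg15, the ubiquitin-like antiviral protein whose promoter has the longest run, lies on chromosome 4 at 156199424 to 156200818. It stood at 89.7, 74.6, 91.9 and 79.9 normalised reads in the untreated wild type and at 620, 386, 716 and 680 with both insults. The labelled knockout alone was higher still, at 1094 ± 182, and ethanol in wild type was lower than untreated, at 28.6 ± 4.22 (SD, n = 4 each). The averages were 3.997 and -1.21, and their sum of 2.79 ± 0.18 was called (limma adjusted p = 1.64e-08). Ifit3, which binds viral RNA with its partners, went from 119, 120, 143 and 154 to 631, 431, 756 and 623. Its level was 1405 ± 196 with the labelled knockout alone and 42.5 ± 20.9 with ethanol alone. Ifi44 rose 7.77-fold, from 50.5 ± 12.1 to 399 ± 89.8, against 1007 ± 203 with the labelled knockout alone. Mx1, the dynamin-like antiviral GTPase, rose from 18.0 ± 6.6 to 98.3 ± 33.6, and ethanol in wild type held it at 2.70 ± 3.31. Apol9a, an interferon-induced apolipoprotein L, went from 337 ± 76.3 to 1126 ± 276, between the 2136 ± 533 of the labelled knockout and the 65.5 ± 27.6 of ethanol; it shares reads with close copies, so its level is uncertain.

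Not every interferon target followed that course. Cxcl10, the interferon-induced lymphocyte attractant whose promoter also holds the letters above, went from 14.8, 17.9, 9.07 and 7.27 to 379, 209, 387 and 336 normalised reads (log2 4.67 ± 0.39, limma adjusted p = 2.97e-07). Its ethanol average was 0.60 and was not called (adjusted p = 0.0863), and the labelled knockout alone gave a similar level, 269 ± 21.2. Ly6a, a surface antigen also induced by interferon, rose from 66.1, 144, 51.0 and 56.1 to 1220, 1575, 1703 and 2301, with a genotype average of 4.42 and an ethanol average of 0.07. Ccl5, a T-cell attractant, rose from 8.75 ± 8.58 to 98.5 ± 35.0 (SD, n = 4 each), and its ethanol average was 0.03. Mlkl, the effector of necroptosis, rose 3.72-fold with a genotype average of 1.82 and an ethanol average of 0.07.

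Antigen presentation genes were raised by the labelled genotype in both classes. Of 20 class I genes 13 rose and 2 fell with both insults (median 0.53; 10 and 1 without libraries 1 and 4 of the labelled knockout on ethanol), against 16 higher with the labelled knockout alone and 8 lower with ethanol alone; 8 rose and 1 fell when ethanol libraries 1 and 2 alone were used. H2-D1, a class I heavy chain, rose from 4880, 5914, 5225 and 5232 to 13532, 14321, 12046 and 14836. Near-identical class I genes can share reads, so its level is uncertain. Psmb8, a catalytic subunit of the immunoproteasome, rose 1.52-fold from averages of 1.48 and -0.88, and the departure from their sum was within -0.34 to 0.34 (95% interval). Of 9 class II genes 1 rose with both insults (median 0.47), where all 9 had a higher genotype average and 8 a lower ethanol average. Without library 3 labelled knockout on control diet 4 of the 9 rose, and without untreated library 2, or with the compared groups alone, 2 did. Ciita, the master regulator of class II, stood at 7.89, 8.95, 11.3 and 13.5 untreated and at 10.8, 9.20, 11.1 and 6.74 with both insults. Its averages were 1.22 and -1.34, with a sum of -0.12 ± 0.40 that was not called (SE, limma adjusted p = 0.833). With ethanol libraries 3 and 4 alone the genotype average was not called (1.15, adjusted p = 0.0568).

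Macrophage markers moved with these genes. Both insults together raised 11 and lowered 1 of 19 markers of Kupffer cells and macrophages; 11 rose with the labelled knockout alone and 14 fell with ethanol alone. With libraries 1 and 4 of the labelled knockout on ethanol left out, 7 rose and none fell. Their summed level over 21 genes was 7520 to 9287 with both insults and 3815 to 4268 in 3 untreated libraries, but untreated library 2 held 8297, so the sums overlap. Mpeg1, a pore-forming macrophage protein, went from 565, 1313, 926 and 634 to 2183, 1955, 1387 and 1822 (log2 1.16 ± 0.28, limma adjusted p = 0.00402). Mpeg1 was no longer called without libraries 1 and 4 of the labelled knockout on ethanol (log2 1.02, adjusted p = 0.0543) and with ethanol libraries 3 and 4 alone (0.97, adjusted p = 0.0519). Of 13 markers of monocyte-derived macrophages and dendritic cells 5 rose and 1 fell, 3 and 1 without those libraries. Of 5 T and NK cell and 4 B and plasma cell markers that passed the filter limma called none; 1 and 0 had an unadjusted p under 0.05. Among the first list edgeR and DESeq2 each called 1 lower, as did limma without library 1 labelled knockout on control diet or untreated library 2. With no filter limma called 2 of that list higher, among more genes tested. Among the second edgeR called 1 lower, DESeq2 1 higher and 1 lower, and limma 1 higher without library 2 of the labelled knockout on ethanol. The summed levels were 196 to 275 and 228 to 569 untreated, and 270 to 313 and 175 to 535 with both insults. The part of macrophages and lymphocytes in the interferon genes was not tested.

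Chemokine, cytokine and matrix genes rose, with opposing averages in 1, 1 and 2 members, beside 5.06% of all genes tested. Of 12 chemokines 7 rose, of 22 genes of the NF-kB and cytokine response 14 rose and 1 fell, and of 26 fibrosis and matrix genes 16 rose and none fell. In the NF-kB list 9 rose and 1 fell without libraries 1 and 4 of the labelled knockout on ethanol. With the filter at a mean of 50, 8 of that list and 9 of the matrix list rose among fewer genes tested. Tnfaip3, the ubiquitin-editing enzyme that restrains NF-kB, went from 36.5, 43.7, 36.3 and 35.3 to 157, 120, 109 and 130 normalised reads, with averages of 0.86 and 0.87. Col4a1, a basement membrane collagen, went from 210, 264, 226 and 174 to 1031, 1205, 928 and 954, with averages of 0.86 and 1.37. Mmp14, a membrane-bound matrix protease, rose 1.97-fold, and its genotype average of -0.15 was not called (adjusted p = 0.302).

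Endothelial and stellate markers rose with ethanol. Of 20 sinusoidal endothelial markers 15 rose and none fell with both insults, 16 rose with ethanol in wild type and none with the labelled knockout. Lyve1, a hyaluronan receptor of these cells, went from 26.6, 54.7, 79.4 and 64.4 to 383, 739, 391 and 600. Pecam1, an endothelial adhesion molecule, rose 2.27-fold. Of 16 stellate cell markers 7 rose and 1 fell, and 4 rose and 2 fell with ethanol libraries 3 and 4 alone. Of 5 neutrophil markers tested 1 rose, with a summed level over 15 genes of 132 to 475 untreated and 1590 to 8646 with both insults. The mean of log2(value + 1) over the 15 genes was 1.76 to 2.35 untreated and 2.23 to 3.33 with both insults. These ranges overlap, and the sums rest on few highly read members. Of 9 cholangiocyte markers 2 rose and 2 fell, and 1 rose when untreated library 1, 2 or 3 or library 1 or 4 with both insults was left out, with 1 or 2 lower. Of 6 adipocyte markers 2 rose and 2 fell, and of 6 erythroid markers limma, edgeR and DESeq2 called none (0 at an unadjusted p under 0.05). Acinar markers passed the filter through library 1 with both insults, and no count of calls is given for them. Of 21 hepatocyte markers 4 rose and 8 fell, and without libraries 1 and 4 of the labelled knockout on ethanol 1 rose and 4 fell; without library 3 of that group 5 rose and 5 fell. With ethanol libraries 1 and 2 alone 7 rose and 4 fell, and with 3 and 4 alone 1 rose and 6 fell. With no filter 4 rose and 4 fell.

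**Figure D4:**
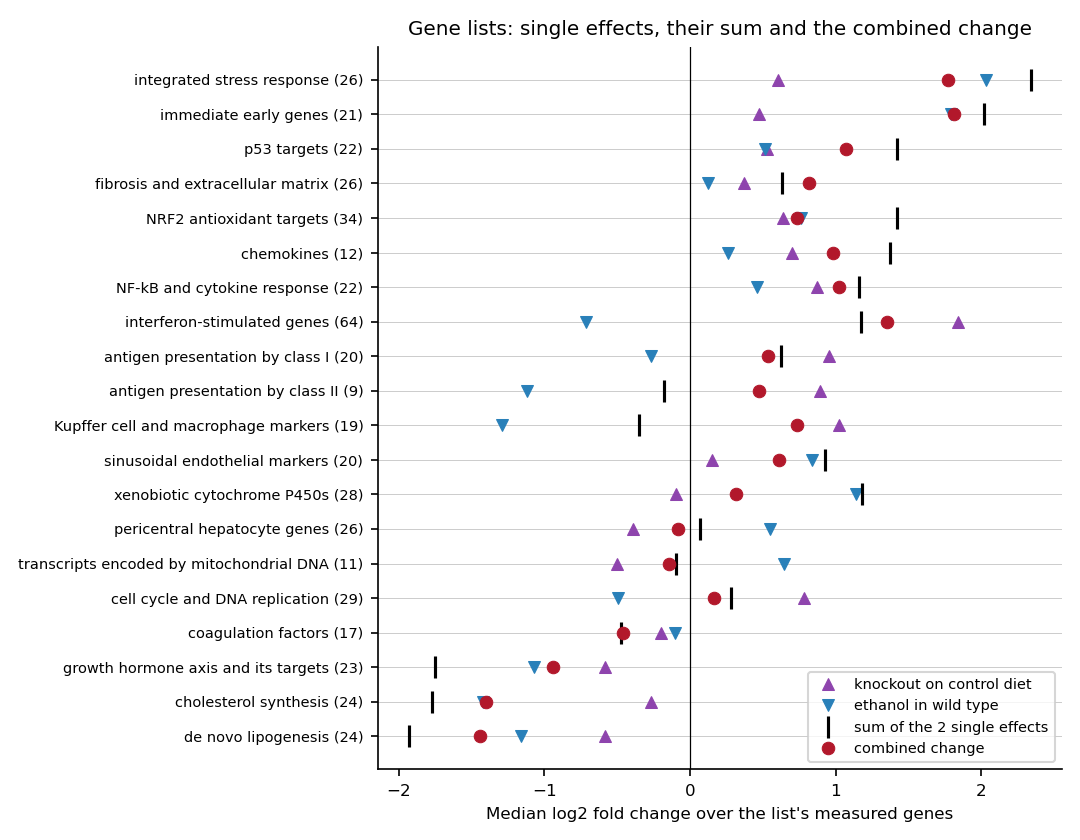
Median log2 fold change (x axis) over the measured genes of 20 lists (number of genes in brackets) for the labelled knockout on control diet, ethanol in wild type, the median of the gene-wise sum of the 2, and the combined change; all 4 share the untreated wild-type libraries. For integrated stress, NRF2 and lipid synthesis lists both single medians lie on 1 side of 0; for interferon-stimulated genes (1.84 and -0.71), class II and mitochondrial transcripts they lie on opposite sides.

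Genes lowered by the labelled genotype and raised by ethanol included P450s, pericentral genes and mitochondrial transcripts. Of 28 xenobiotic cytochrome P450 genes 12 rose and 6 fell with both insults (median 0.31), and 10 rose and 6 fell without libraries 1 and 4 of the labelled knockout on ethanol (median 0.57). Ethanol alone raised 18 and lowered none, and the labelled knockout alone raised 4 and lowered 6. Of 26 pericentral genes, those of hepatocytes around the central vein, 7 rose and 10 fell with both insults, where ethanol alone raised 13 and lowered 2. Cyp2c37, a cytochrome P450 of the Cyp2c family (chromosome 19, 39992424 to 40012243), stood at 3190, 2856, 2118 and 2987 untreated and at 1028, 1430, 1843 and 1008 with both insults. The labelled knockout alone gave 896 ± 214 and ethanol in wild type 8618 ± 1160 (SD, n = 4 each), so ethanol was far above and the combination below the untreated level. Its averages were -2.19 and 1.09, and the combined log2 of -1.10 ± 0.21 was called (limma adjusted p = 0.00059). Reads of the Cyp2c family can be shared among near-identical members.

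Vldlr and Gstt3 ended on the other side. Vldlr, a lipoprotein receptor, went from 35.5, 25.9, 17.0 and 29.1 to 47.2, 75.6, 69.7 and 50.04, while the labelled knockout alone was at 6.77 ± 3.11 and ethanol alone at 143 ± 29.2. Its combined log2 of 1.16 ± 0.27 was called (limma adjusted p = 0.00318). Gstt3, a glutathione transferase of a family with close copies, rose from 404 ± 53.1 to 1421 ± 318, less than the 3277 ± 760 of ethanol alone. Epas1, which encodes the hypoxia factor HIF-2 alpha, cancelled: 2484, 2599, 3790 and 3187 untreated, 3550, 4125, 2429 and 2472 with both. Its averages were -1.002 and 1.04 and the combined change 0.04 ± 0.24 (SE, limma adjusted p = 0.904). The 95% interval of that change ran from -0.47 to 0.56. Cyp17a1, a steroid hydroxylase, likewise had averages of -1.85 and 1.83 and stood at 434 ± 206 and 400 ± 91.6 normalised reads.

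Transcripts of mitochondrial DNA met in the middle. Of 11 measured, 7 had a lower genotype average and 9 a higher ethanol average, and 1 was called with both insults (median -0.14, and 0.028 without libraries 1 and 4 of the labelled knockout on ethanol). mt-Nd5, a complex I subunit, stood at 38304, 37938, 49119 and 41583 untreated and at 39044, 43467, 33511 and 34938 with both. Its averages were -0.80 and 0.65, and the groups overlap. mt-Cytb, the cytochrome b of complex III, was the 1 called, falling from 118100 ± 12000 to 80280 ± 6700 (log2 -0.56 ± 0.18, limma adjusted p = 0.0239). It lost its call without untreated library 3 (-0.50, adjusted p = 0.0651) or 4 (-0.53, adjusted p = 0.0575), without library 3 (-0.51, adjusted p = 0.0618) or 4 (-0.53, adjusted p = 0.0568) with both insults, and under 3 other alternatives (adjusted p up to 0.119). The number called in the list was 0 in those cases and 2 without untreated library 2, library 1 labelled knockout on control diet or library 4 of the wild type on ethanol. Of 40 nuclear-encoded respiratory chain subunits 14 fell and none rose. Without untreated libraries 1, 3 or 4 that number was 9, 6 and 4, and without library 3 or 4 with both insults 4 and 5. It was 2 without libraries 1 and 4 of the labelled knockout on ethanol, 22 with the compared groups alone and 0 with ethanol libraries 1 and 2 alone. Of 15 fission and fusion genes 5 fell, and Opa1, the inner membrane fusion GTPase, fell from 1602, 1508, 1623 and 1691 to 1276, 1321, 1132 and 1148 (log2 -0.40 ± 0.09 SE, limma adjusted p = 0.00281).

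Some growth hormone targets had a higher genotype average and a lower ethanol average, and their combined change was not called. A missing call does not show that the averages cancel in full. Of 23 genes of the growth hormone axis 11 fell and 1 rose with both insults, 8 and 0 without libraries 1 and 4 of the labelled knockout on ethanol. The ethanol average alone was called for 11 of the 23, and 4 had opposing averages, none of them called in the combined change. Mup20, the major urinary protein darcin, stood at 26767, 14359, 30002 and 26942 untreated and at 23465, 41043, 24341 and 14281 with both. The groups overlap, although ethanol in wild type left 5779 ± 4170 and the labelled knockout alone had 45250 ± 11500. Its averages were 1.61 and -1.59. Mup21 had averages of 2.04 and -2.59 and a combined change of -0.55 ± 0.55 (SE, limma adjusted p = 0.461). With each library left out in turn that change ran from -0.814 to -0.263. Cyp4a12b, a fatty acid hydroxylase of male liver, went from 677 ± 94.3 to 733 ± 215, with 138 ± 55.8 on ethanol alone. Mup genes are near-identical copies, and their separate levels are uncertain. Slco1a1, another growth hormone target and an organic anion importer, was called and fell to 0.122 of its level (limma adjusted p = 0.000728).

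Cell cycle genes split by member. Of 29 measured, 10 rose and 5 fell with both insults (median 0.17); 18 had a higher genotype average and 14 a lower ethanol average. Without untreated library 2, 6 rose and 5 fell, and without libraries 1 and 4 of the labelled knockout on ethanol 8 and 2 (median 0.36). With ethanol libraries 3 and 4 alone 5 rose and 2 fell. With the filter at a mean of 50, 1 was higher and 5 lower among fewer genes tested. The median over the members left was -0.51. Mki67, the proliferation marker, went from 23.7, 11.9, 9.07 and 14.5 to 44.3, 83.8, 77.6 and 37.5. Mcm6, a subunit of the replicative helicase, had averages of 1.02 and -1.69 and a combined change of -0.67 ± 0.35 (SE, limma adjusted p = 0.15). That change was called without library 3 labelled knockout on control diet (adjusted p = 0.0409), and the genotype average was not called with ethanol libraries 3 and 4 alone (adjusted p = 0.0753).

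Whether a combined change equals the sum of its single effects on the log2 scale is a separate test, the departure from additivity. Such a sum is a product of fold changes, and addition on the scale of reads was not tested. The departure was called for 46 of 13256 genes (0.347%), 27 below the sum (0.204%) and 19 above it (0.143%). This test has the widest error of those used, with a median standard error of 0.24 on the log2 scale against 0.17 for the combined change. For 3120 of the 4922 genes called in the combined change (63.4%) the 95% interval of the departure lay within 1 log2 unit of 0, and for the others a larger departure was not bounded. The number was 265 in DESeq2 (2.08%) and 30 in edgeR (0.226%). It fell to 8 without library 1 and 9 without library 4 of the labelled knockout on ethanol, and to 0 without both (1210 genes at an unadjusted p under 0.05, or 9.13%). It was 264 with ethanol libraries 1 and 2 alone and 0 with ethanol libraries 3 and 4 alone (925 at an unadjusted p under 0.05, or 6.98%). Without ethanol library 3 of the wild type it was 215. All 46 kept their sign wherever they were tested, and 46 of 46 had an unadjusted p under 0.05 in both of the fits that called none. The 46 were picked by their small p in the full fit, and those fits use part of the same libraries. Sign and unadjusted p therefore give no independent support to the 46.

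Falling short of the sum was the common form. In all 27 genes below the sum both single effects were above 0, and in 23 of them the combined change was smaller than the larger single effect. Of the 19 above the sum both single effects were below 0 in 14, and genotype was above and ethanol below 0 in 5. In 1 of the 46 the combined change passed the sum in the sum's own direction. The single effects and the combined change share the untreated libraries, so these counts describe the genes called and no more.

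The departures described are 8 of the 46. Cyp2a5, a coumarin hydroxylase (chromosome 7, 26835305 to 26843548), stood at 2056, 2343, 2674 and 2553 untreated and at 8842, 10368, 9792 and 10272 with both insults. The labelled knockout alone reached the same level, 10180 ± 4110, and ethanol alone 17440 ± 4290 (SD, n = 4 each). Added on the log2 scale, the single effects would give 28.3-fold. The combined change was 4.09-fold, a departure of -2.79 ± 0.33 (SE, limma adjusted p = 0.00264). Nqo1, the quinone reductase of the NRF2 response, was raised to 217 ± 47.8 by the labelled knockout, 233 ± 32.5 by ethanol and 257 ± 44.2 by both, from 61.9 ± 9.43. Its departure was -1.65 ± 0.23 (limma adjusted p = 0.0105). Abcc4, an efflux pump, went from 15.04 ± 1.42 to 236 ± 75.3 with both, below the 344 ± 54.0 of ethanol alone (departure -2.16 ± 0.31, limma adjusted p = 0.0105). Its average genotype effect of 0.49 was lost under 11 of 28 alternatives, with adjusted p up to 0.185. Among these were the leaving out of library 1 or 2 labelled knockout on control diet (0.42 and 0.48), of library 2, 3 or 4 with both insults (0.49, 0.41 and 0.46), of untreated library 2 or 4 (0.46 and 0.50) and of ethanol library 1 in wild type (0.43), so its place among genes that add is uncertain.

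Cbr3, a carbonyl reductase, was at 1.97, 6.96, 3.40 and 2.08 untreated and at 123, 126, 230 and 172 with both insults, while the labelled knockout alone gave 338 ± 280 and ethanol alone 107 ± 52.0. Cyp2b10, the classic target of the xenobiotic receptor CAR, went from 10.9, 1.99, 2.27 and 5.19 to 4731, 13265, 11816 and 10559. Ethanol alone had already taken it to 16940 ± 1960, and the labelled knockout alone to 42.3 ± 24.9. The departures were -5.14 ± 0.78 for Cbr3 and -3.74 ± 0.59 for Cyp2b10 (SE, limma adjusted p = 0.0116 and 0.0147). Their single effects on the log2 scale start from few untreated reads, so the size of these departures is uncertain. Gsta2, a glutathione transferase with close copies, rose from 43.6 ± 23.7 to 443 ± 107 and departed by -2.97 ± 0.49 (limma adjusted p = 0.0163). That departure was lost without library 1 (-2.97, adjusted p = 0.0523) or 4 (-2.80, adjusted p = 0.0515) of the labelled knockout on ethanol. Raet1d, a ligand of the NK cell receptor NKG2D, rose from 97.2 ± 39.3 to 319 ± 66.8 against 530 ± 34.9 on ethanol alone (departure -2.03 ± 0.30, limma adjusted p = 0.0116).

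Ifi27, an interferon-induced mitochondrial protein, departed upward. It stood at 826, 1326, 896 and 1060 untreated and at 6769, 6079, 6252 and 5432 with both insults. Ethanol in wild type lowered it to 377 ± 13.7, and the labelled knockout alone held 7460 ± 651. The sum of the single effects would give 2.75-fold and the combined change was 6.05-fold, a departure of 1.14 ± 0.17 (SE, limma adjusted p = 0.0116). The departures of these 8 genes were all lost without libraries 1 and 4 of the labelled knockout on ethanol and with ethanol libraries 3 and 4 alone (adjusted p from 0.0795 to 0.281). Ugt1a9, a bilirubin-family glucuronosyltransferase raised 6.61-fold by both insults, shows a gene just outside the threshold: its departure was -1.05 ± 0.25 (limma adjusted p = 0.0864).

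**Figure D5:**
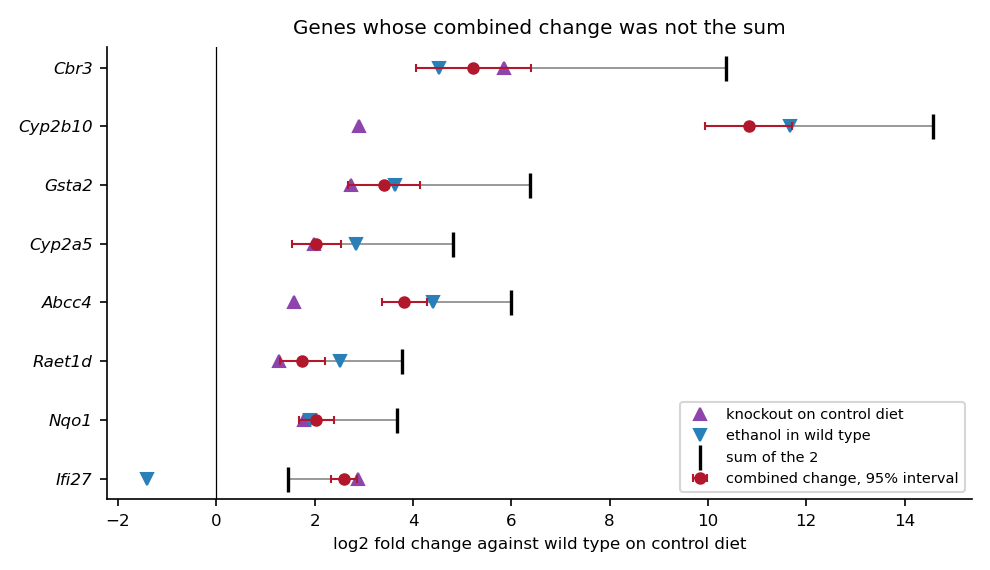
Log2 fold change against the untreated wild type (x axis) of 8 genes for the labelled knockout on control diet, ethanol in wild type, the sum of the 2 and the combined change with its 95% interval. In 7 genes the combined change lies below the sum and near a single effect; in Ifi27 it lies above the sum.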

How the data were processed

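Values were deposited as signal: the authors scaled each library's reads per gene by a single size factor, and undoing this gave whole reads for 100% of values within 0.01. Per the submitters' processing notes the tools were HTSeq, edgeR and HISAT2 2.1.0.13, with GRCm38; annotation and strand setting: not given in the sources used here, so antisense reads cannot be told apart. Of 27288 identifiers 27242 matched GENCODE on GRCm38.

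Contrasts were fitted with limma 3.58.1 (R 4.3.3) on log2(value + 1), 4 group means over 16 libraries with a trend, for genes with a mean of at least 10, with calls at an adjusted p (Benjamini-Hochberg) under 0.05. Every adjusted p is from limma unless edgeR or DESeq2 is named. Fold changes are on the value + 1 scale, which understates low genes. The average effects are uncorrelated contrasts that sum to the combined change. edgeR 4.0.16 and DESeq2 1.42.0 ran on the recovered reads. In data simulated for 13256 genes, limma recovered 82% of 2-fold combined changes and 40% of 2-fold departures, with 50 genes changed for each. The simulated combined change was a genotype effect alone, and far fewer genes changed than were called in the data. Recovery in the data may therefore differ. Replicates differed beyond sampling noise (mean chi-square per gene 10.9 to 118). In both ethanol groups libraries 1 and 2 lay apart from 3 and 4. In wild type the value was 14.2 for 1 and 2 and 38.5 for 3 and 4, against 69.4 to 118 across. In the labelled knockout it was 22.2 and 11.85, against 31.0 to 36.1 across. The fits with ethanol libraries 1 and 2 alone or 3 and 4 alone follow this split, whose source was not tested.

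The comparison, its gene lists (54 written, 37 described) and the tests were chosen with earlier results of these data known. Genes named were the targeted gene, the largest rises and falls of the combined change among genes of above-median level whose groups did not overlap, the strongest adding and opposing genes, called departures with the smallest p, and up to 3 called and 2 opposing members per list; which of these genes and lists are described was chosen after their values were seen. The alternatives tried were a filter at 50 or none, a pseudocount of 0.25 or 4, no trend, TMM factors, edgeR, DESeq2, a replicate block, the compared groups alone, each library left out, and library subsets.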

Additional observations from a re-analysis of the deposited data

Results flagged for a closer look

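The ethanol effect differed between the genotypes, by limma's test of that difference (adjusted p under 0.05), in 8 genes named above. On the log2 scale the effect in the labelled knockout minus that in the wild type was -5.14 for Cbr3, -3.74 for Cyp2b10, -2.97 for Gsta2, -2.79 for Cyp2a5, -2.16 for Abcc4, -2.03 for Raet1d and -1.65 for Nqo1. It was 1.14 for Ifi27.

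In 25 of 304 groups of 4 values (8.22%) 1 library stood apart from the other 3 by Dixon's criterion, which chance alone meets in about 5% of groups; 2 of the 25 were in the labelled knockout on ethanol. These were library 1 for pancreatic acinar markers, at 10958 normalised reads against 12.7 to 16.4, and library 4 for erythroid markers, at 6400 against 2077 to 2521.

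The untreated wild type held 10. Library 2 was apart for Kupffer cell and macrophage markers (8297 against 3815 to 4268), Ly6a (144), Tnfaip3 (43.7), Mx1 (27.8) and Abcc4 (12.9). Library 4 was apart for Ghr (9745) and Slc7a11 (1.04), library 3 for Insig1 (5086) and B and plasma cell markers (569), and library 1 for Raet1d (156).

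Wild type on ethanol held 7. Library 4 was apart for Atf3 (3550) and Ddit3 (1577), library 2 for Gsta2 (755) and Mdm2 (474), library 1 for Mpeg1 (349) and Abcc4 (263), and library 3 for Ifi44 (17.6). The labelled knockout on control diet held 6. Library 3 was apart for Mt1, a metallothionein (9553), neutrophil markers (5652) and Mcm6 (62.6), library 1 for Ddit3 (465) and Vldlr (11.4), and library 4 for H2-D1 (15439).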

How the results depend on the processing

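Of 162 values for single genes, 143 kept their direction and call under every alternative that gave one, none reversed, and 14 of the other 19 changed only with 2 libraries in a group. Leaving out each library in turn gave 4027 to 5210 called genes for the combined change, 1981 to 2598 for the average genotype effect, 5602 to 6247 for the average ethanol effect, 4251 to 5289 for ethanol in wild type and 922 to 1691 for the labelled knockout on control diet, the lowest of these without untreated library 4. It gave 463 to 629 genes that add, 554 to 811 that oppose, 408 to 584 that oppose and were not called, and 8 to 215 departures. Without libraries 1 and 4 of the labelled knockout on ethanol the combined change had 3114 called genes, the genotype average 1637, departures 0, adding 362, opposing 395 and opposing not called 309. With ethanol libraries 1 and 2 alone 264 genes departed and 289 added; with 3 and 4 alone 0 departed, 360 opposed, 274 opposed and were not called, and ethanol in wild type had 3164. Departures numbered 265 in DESeq2, 30 in edgeR and 16 with no trend. At a filter of 50 the median of the cell cycle list was -0.51 and that of the cholangiocyte markers -0.093; with no filter that of the adipocyte markers was 0.79. TMM factors shifted all combined changes by 0.0271 (log2) and gave 2703 higher and 2179 lower.

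Same-numbered libraries of the compared groups did not deviate together (correlations from -0.0512 to -0.0101). Of the 4 libraries with both insults 0 correlated best with their own number, so no pairing by number was seen between these groups. A link by number among the other groups was not tested. With the replicate block 2486 genes were higher, 2304 lower and 24 departed.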
